A study of Mus musculus with 18 samples.

Results

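The epidermal differentiation complex is a cluster of genes on mouse chromosome 3 whose products build and regulate the outer, cornified layer of stratified epithelia. Its members were taken by position and biotype alone, as the protein-coding genes that start between positions 90500000 and 93700000 (GRCm38) and have at least 10 raw counts summed over all 18 libraries. Of 78 protein-coding genes in the interval 54 met this minimum, out of 55536 genes in the count table. The 54 members comprise 13 S100 genes, 17 late cornified envelope (LCE) genes, 7 small proline-rich (SPRR) genes, 6 single-gene envelope precursors such as loricrin (Lor) and involucrin (Ivl), 6 fused S100-type genes such as filaggrin (Flg), 2 peptidoglycan recognition genes and 3 others. Lce1m with 11, S100a5 with 16, Lce3d with 20 and Sprr2b with 24 counts lay just inside the minimum, and Sprr2i, Lce1j and Lce3a with 8 counts each and Sprr2a2 with 7 lay just outside it. Of the 24 genes left out, 13 had no count in any library.

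Each library came from a culture of mouse mammary epithelial organoids, which are small gland-like bodies grown in matrigel, a basement membrane gel. The organoids came from mammary glands of C57BL/6 mice aged 6 to 7 weeks that were RasGRP1-/- (KO) or wild type (WT). RasGRP1 is an exchange factor that loads Ras with GTP. All cultures received DMEM/F12 with insulin, transferrin and selenium and were treated for 5 days. EGF-WR medium held EGF, NGS-Wnt and Rspo2, EGF medium held EGF alone, and WR medium held NGS-Wnt and Rspo2 without EGF. The doses were 2.5 nM for EGF, 8.3 nM for Rspo2 and 0.1 nM for NGS-Wnt. NGS-Wnt (next generation surrogate Wnt) stands in for a natural Wnt, and Rspo2 (R-spondin 2) strengthens Wnt signalling by keeping Wnt receptors on the cell surface. Each of the 6 groups has 3 libraries, 1 from each batch, named here by the batch number. The study's text calls the 3 biological replicates, but whether they came from separate mice is not given in the sources used here, so p-values measure the spread between these cultures.

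In skin, keratinocytes that leave the basal layer switch on this gene cluster in waves. Involucrin is cross-linked early into a scaffold under the cell membrane. Loricrin and the SPRR and LCE proteins reinforce it, and filaggrin bundles keratins in the dying cells. The S100 genes at either end of the cluster code for small calcium-binding proteins that many epithelia make, the mammary gland among them. Mammary ducts, with a luminal and a myoepithelial layer, do not normally cornify.

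Total counts ran from 24290097 to 31269899 per library. Rasgrp1 had 25 counts over the 9 KO libraries, with 0 to 9 in each, against 145 over the 9 WT libraries, with 6 to 28 in each, so single libraries overlapped. Which exons the allele lacks is not given in the sources used here. All 12 mammary epithelial markers examined were present. In KO libraries they summed to 7750 to 11000 CPM (read counts scaled to library size with edgeR's TMM factors) in EGF-WR, 6580 to 10100 in EGF and 9120 to 12800 in WR medium. In WT libraries they summed to 8280 to 10300 CPM in EGF-WR, 7550 to 8620 in EGF and 9370 to 12900 in WR medium, so WT EGF and WT WR libraries did not overlap. Markers of other cells were present as well. Fibroblast markers summed to between 497 and 1110 CPM in KO EGF-WR, 747 and 2120 CPM in KO EGF, 947 and 1900 CPM in KO WR, 400 and 1150 CPM in WT EGF-WR, 910 and 2860 CPM in WT EGF and 657 and 2420 CPM in WT WR libraries. Adipocyte markers summed to 39.6 to 265 CPM in EGF-WR libraries of either genotype and to 187 to 1090 CPM in EGF and WR libraries. Endothelial markers summed to 69.9 to 182 CPM in EGF-WR libraries and to 224 to 537 CPM in the others, and macrophage markers to 8.98 to 28.4 CPM in EGF-WR libraries and 19.2 to 156 CPM in the others. The hair follicle keratins Krt25 and Krt35 had no count. The 6 follicle markers found summed to 5.86 to 10.8 CPM in KO EGF-WR, 6.55 to 9.69 CPM in KO EGF and 10.5 to 13.6 CPM in KO WR libraries, and to 7.69 to 13.3 CPM in WT EGF-WR, 5.8 to 9.47 CPM in WT EGF and 11.8 to 15.4 CPM in WT WR libraries, so EGF and WR libraries did not overlap in either genotype. The part of these cells in the levels of the members was not tested.

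The promoters of 4 members are printed here because these genes share the cluster and differed in how their levels followed the medium. Each promoter also holds a match to TGANTCA, a loose form of the AP-1 motif that allows any middle base. Flg and Sprr1b had most of their counts in WR medium, and Sprr1a and Ivl had similar counts in all media. Each line holds the 250 bases before the gene start from RefSeq (GRCm38.p6), 5′ to 3′ on the gene's strand, with matches to the AP-1 motif TGANTCA in capitals. The stretches are chr3:93273296-93273545 on the plus strand (Flg), and chr3:92438780-92439029 (Sprr1b), chr3:92485882-92486131 (Sprr1a) and chr3:92573736-92573985 (Ivl) on the minus strand.
Flg: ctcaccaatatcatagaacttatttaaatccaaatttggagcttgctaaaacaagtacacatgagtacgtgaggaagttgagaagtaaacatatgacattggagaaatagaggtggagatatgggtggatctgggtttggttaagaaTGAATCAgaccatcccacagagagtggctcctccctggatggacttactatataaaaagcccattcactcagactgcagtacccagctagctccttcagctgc
Sprr1b: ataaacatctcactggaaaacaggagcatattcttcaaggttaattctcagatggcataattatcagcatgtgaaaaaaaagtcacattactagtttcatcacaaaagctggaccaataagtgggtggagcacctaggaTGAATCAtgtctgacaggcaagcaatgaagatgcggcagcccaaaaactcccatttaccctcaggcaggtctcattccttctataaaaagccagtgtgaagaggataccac
Sprr1a: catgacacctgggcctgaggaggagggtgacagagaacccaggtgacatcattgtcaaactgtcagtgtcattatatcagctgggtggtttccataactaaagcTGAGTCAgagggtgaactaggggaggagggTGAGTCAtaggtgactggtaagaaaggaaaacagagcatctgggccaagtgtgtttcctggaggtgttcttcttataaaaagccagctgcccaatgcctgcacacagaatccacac
Ivl: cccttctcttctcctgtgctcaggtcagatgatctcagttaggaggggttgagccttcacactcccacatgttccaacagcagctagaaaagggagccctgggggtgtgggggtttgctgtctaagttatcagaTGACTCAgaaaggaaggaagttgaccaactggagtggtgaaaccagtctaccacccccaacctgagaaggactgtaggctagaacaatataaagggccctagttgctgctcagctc
All 4 hold a match to TGANTCA because they were chosen for it, Sprr1a at 2 places. The middle base differs: the match reads TGAATCA in Flg and Sprr1b, TGAGTCA in Sprr1a and TGACTCA in Ivl.

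AP-1 is a dimer of Fos and Jun family proteins. In windows of 300 bases, from 250 before to 50 after the start, TGANTCA was found on either strand in 14 of 48 promoters of the 44 members that RefSeq's table holds (29.2%), against 2565 of 32851 promoters in the table (7.81%). Besides the printed genes the motif lay in S100a11, S100a16, Lor, Prr9, Sprr2b, Sprr2d, Sprr2h, Crnn, Flg2 and Rptn, and no match was found in S100a6 or S100a8. Among these the match read TGAATCA in S100a16, Crnn and Flg2, TGATTCA in Rptn, and TGAGTCA or TGACTCA in the rest. WR libraries held 33.5%, 72.5% and 98.4% of the counts of S100a16, Crnn and Flg2, and 95.3% for Rptn. For the rest the shares were 37.8% (S100a11), 55.3% (Lor), 85.7% (Prr9), 50.0% (Sprr2b), 85.2% (Sprr2d) and 71.6% (Sprr2h). The middle base therefore did not divide these genes by medium as it did the 4 printed. By family, it lay in 5 of 7 SPRR genes, 4 of 6 fused S100-type genes, 3 of 4 envelope precursors, 2 of 11 S100 genes and 0 of 16 LCE genes with a promoter in the table. The KLF motif GGGNGTGG was in 2 of the 48 (4.17%, against 17.6% of all promoters) and the grainyhead motif AACNNGTT in 3 (6.25%, against 4.2%). The TCF/LEF motif CTTTGAT was in 2 (4.17%, against 3.73%) and the C/EBP motif TTGCNNAA in 5 (10.4%, against 10.8%). No motif holds another, TGANTCA and AACNNGTT read the same on both strands, and a match is a description of letters, not of a bound site.

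Per length, 8 of the 10 highest members were S100 genes. S100a11 averaged 474.5 CPM per kb of exon over the 18 libraries, S100a6 244.2, S100a1 129.5, Sprr1a 95.0, S100a10 83.8, S100a16 64.2, Ivl 33.0, S100a8 31.5, S100a14 29.7 and S100a13 25.5 CPM per kb. All other members were at or below 7.36 CPM per kb (Sprr1b). At the low end, 21 members had under 100 counts in all 18 libraries together.

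Where the counts came from divided the cluster along the chromosome. Libraries in WR medium held 32.8% of the counts of all genes. They held at least 80% of the counts of 28 of the 54 members (51.9%), against 434 of the 23878 genes of the table with at least 10 counts (1.82%). Of the 28, 19 had under 10 counts outside WR medium and so met the minimum only through their WR libraries. The 28 lay between S100a9, the 11th member in order, and Rptn, the 51st. The 13 members with 25 to 45% of their counts in WR medium included S100a16 (33.5%), Sprr1a (34.1%), Ivl (29.4%), Lce6a (34.0%) and Tchh (42.2%). The 5 members under 25% were S100a1, S100a5, S100a6, S100a8 and Sprr2a3. The heatmap of all members shows the block of genes that is dark outside WR medium, flanked by several S100 genes that are bright throughout.

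**Figure D1:**
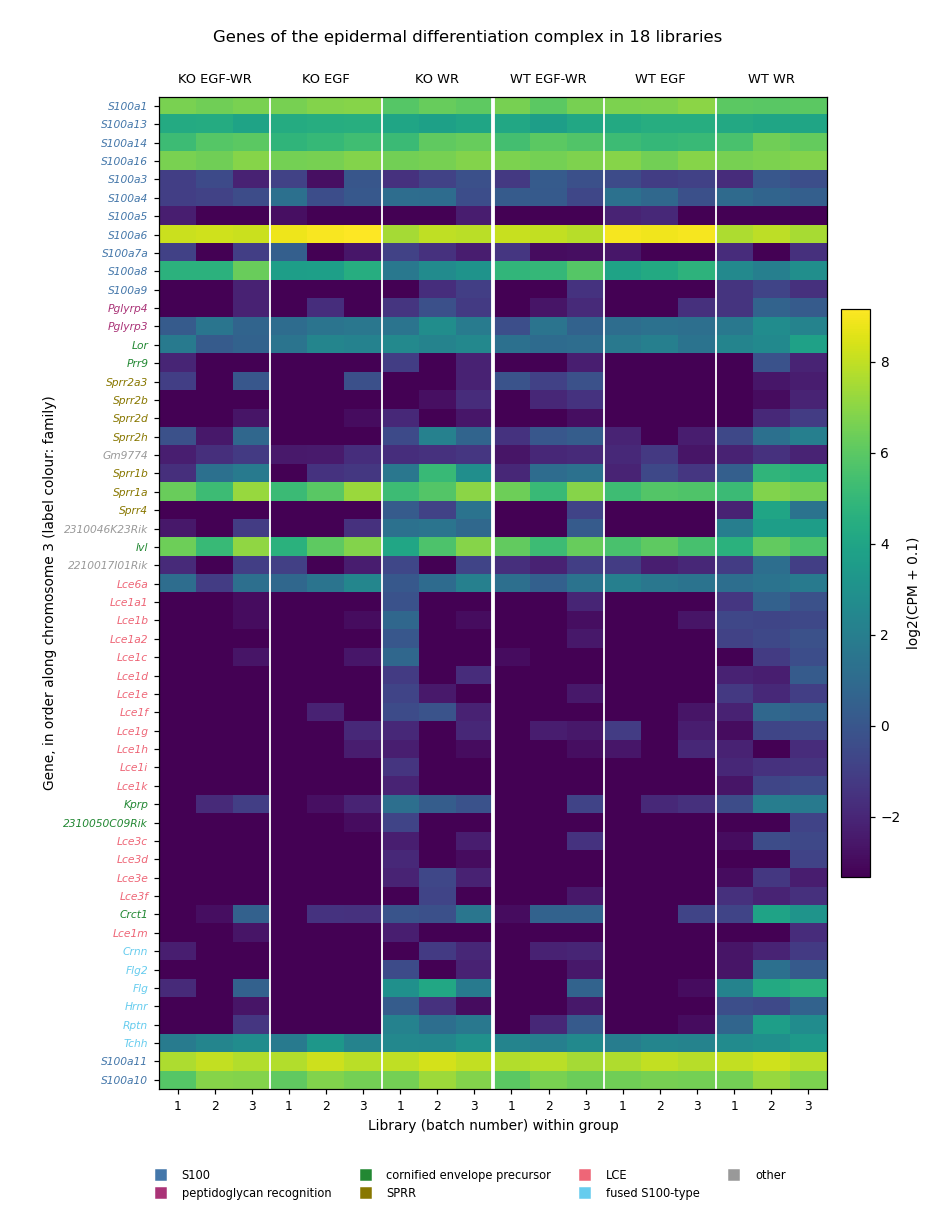
Levels of the 54 members, as log2(CPM + 0.1), in the 18 libraries, with genes from top to bottom in order along chromosome 3 and label colour by family. Most genes between Prr9 and Rptn are dark in EGF-WR and EGF libraries and brighter in WR libraries, whereas Sprr1a, Ivl, Lce6a and several S100 genes at both ends are bright in all media.

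To ask how the media changed the cluster, all genes were tested with edgeR's quasi-likelihood test with batch as a term, and a gene was called at an adjusted p (Benjamini-Hochberg over 17092 genes) under 0.05. Only 36 members passed the filter on low counts, several of them through their WR libraries alone, so the tested members are not all members and their counts are descriptions. Comparisons that share a control medium share its libraries. In bulk RNA, fewer cells of a type and less RNA per cell cannot be told apart.

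Many cornification genes were low in the media with EGF and higher in WR medium. In EGF against WR medium, 4 members rose and 8 fell in KO organoids, where 7.55% of all genes rose and 5.94% fell. In WT organoids 3 members rose and 14 fell, where 8.52% of all genes rose and 6.92% fell. The 3 that rose in WT also rose in KO (S100a1, S100a6 and S100a8), and the 8 that fell in KO (Flg, Hrnr, Rptn, Kprp, Sprr1b, Sprr2h, S100a14 and 2310046K23Rik) also fell in WT. The median log2 fold change of the tested members was -0.88 in KO and -1.99 in WT organoids, against -0.02 and -0.01 over all genes. Genes of 3 counts or fewer in a group were set at their bound or ratio, 11 in KO and 13 in WT organoids. Members that passed the filter through WR libraries alone lower this median by selection, so it is a description. The KO count of 12 was 7 without KO EGF 2 and 6 without the batch term, and the WT count of 17 was 8 without WT EGF 3 and 10 without the batch term.

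In EGF-WR against WR medium, 3 members rose and 9 fell in KO organoids (6.1% and 6.65% of all genes) and 2 rose and 11 fell in WT organoids (4.92% and 5.82%). All 9 that fell in KO also fell in WT: Flg, Rptn, Kprp, Lce1f, Lor, Pglyrp3, Sprr1b, S100a11 and 2310046K23Rik. The median log2 fold change was -1.35 in KO and -1.80 in WT organoids, against 0.0 over all genes. It has the same limit, with 9 KO and 6 WT values at a bound or ratio. These counts depended on single libraries. The KO count of 12 was 4 without KO EGF-WR 1, 5 without KO EGF-WR 2 or KO WR 1, 7 without KO WR 2 and 1 without the batch term. The WT count of 13 was 6 without WT EGF-WR 1 or WT WR 2, 7 without WT EGF-WR 2, 8 without WT WR 3 and 2 without the batch term.

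In EGF-WR against EGF medium 5 of the 36 tested members were called in each genotype. In KO organoids 4 rose and 1 fell (5.17% and 6.48% of all genes), and in WT organoids 3 rose and 2 fell (6.85% and 8.78%). S100a8 and Sprr1b rose and S100a6 fell in both genotypes. The KO count of 5 was 2 without KO EGF-WR 3 or KO EGF 2, 3 without KO EGF 3 and 1 without the batch term. The WT count of 5 was 3 without KO EGF 3, WT EGF-WR 1, WT EGF-WR 3 or WT EGF 2, 2 without WT EGF-WR 2, and 1 without WT EGF 3 or without the batch term, and DESeq2 called 8.

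For the members named with a mean of at least 1 CPM or from the set list, 20 of 52 calls held without the batch term. In EGF against WR medium these were S100a1, S100a6, Sprr1b, Sprr2h, Flg and Rptn in both genotypes, and S100a8, S100a14 and 2310046K23Rik in WT organoids. In EGF-WR against WR medium they were S100a8 in both genotypes and Lor in WT organoids, and in EGF-WR against EGF medium S100a6 in both genotypes. The other calls of the 52 were lost. Calls of Kprp, Hrnr, Lce1f, Lce1a1 and Sprr2a3, with means under 1 CPM, are not among the 52. Without the batch term these calls were lost in every comparison of media but WT EGF against WT WR. For that comparison, and for omissions of single libraries, their calls are not followed here.

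**Figure D2:**
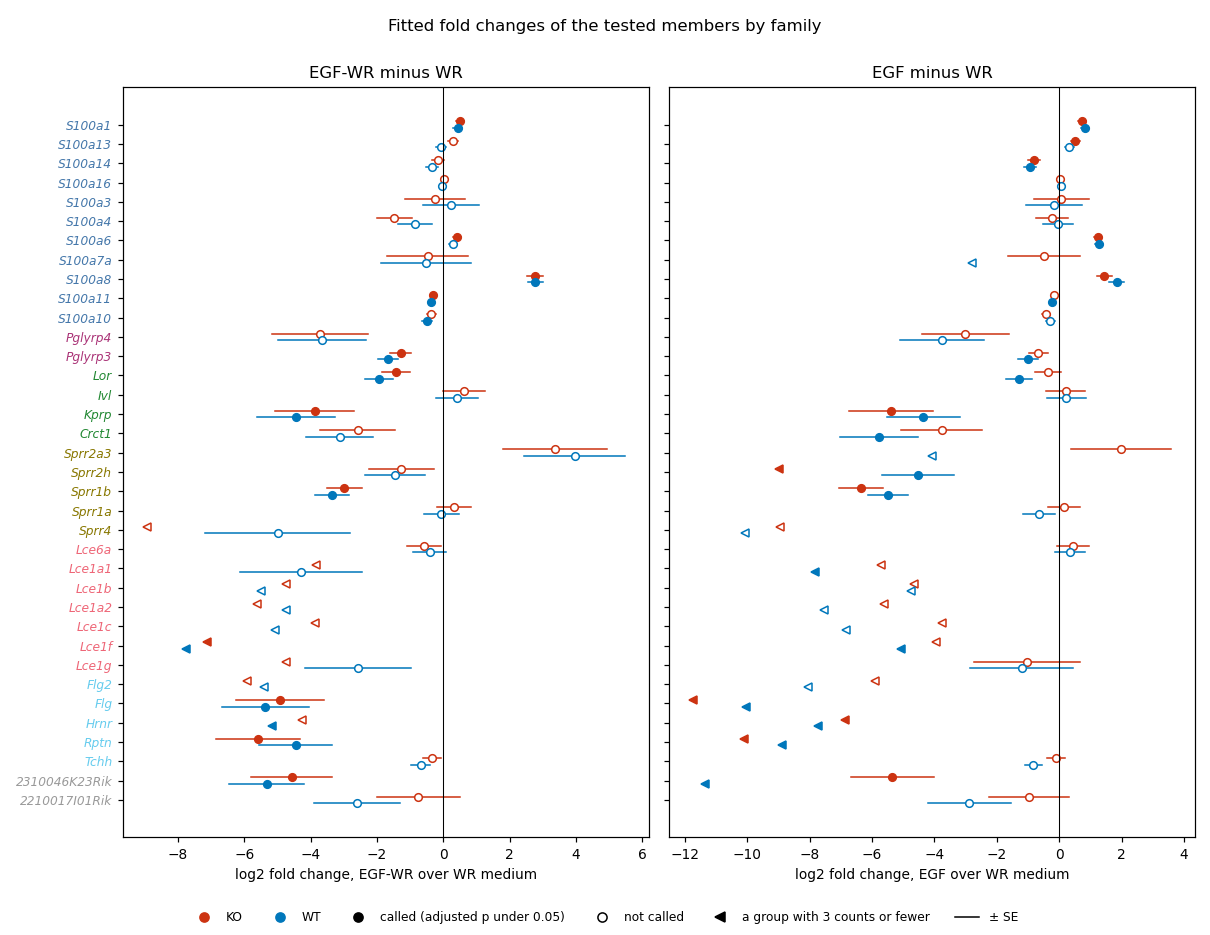
Fitted log2 fold changes of the 36 tested members in EGF-WR over WR medium (left) and EGF over WR medium (right), with KO above WT for each gene. Circles carry ± SE, derived from the F statistic, and filled symbols were called. Triangles mark genes with 3 counts or fewer in a group, whose fitted value depends on the prior count. The filled symbols right of 0 all belong to S100 genes (S100a1, S100a6, S100a8 and S100a13), and most envelope genes lie to the left, whereas Ivl, Sprr1a and Lce6a lie near 0.

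S100 genes. Of 13 members 11 were tested, and those called moved in both directions. S100a8, a calcium-binding protein that with S100a9 forms calprotectin, rose most. It had 25.9, 25.7 and 78.5 CPM in KO EGF-WR, 12.7, 13.2 and 22.1 CPM in KO EGF and 3.10, 6.34 and 8.49 CPM in KO WR libraries. In WT organoids it had 29.8, 32.3 and 57.9 CPM in EGF-WR, 15.1, 19.2 and 26.8 CPM in EGF and 5.70, 4.07 and 7.07 CPM in WR medium. The 3 media did not overlap in either genotype. Each SE given here was derived from the test, as the size of the log2 fold change over the square root of the F statistic. It is rough at low counts. Against WR medium, S100a8 rose by 1.45 ± 0.24 (log2 ± SE) in KO EGF and 1.84 ± 0.24 in WT EGF organoids (edgeR adjusted p = 0.000515 and 4.87e-05). In EGF-WR over WR medium the rise was 2.77 ± 0.24 in KO and 2.78 ± 0.24 in WT organoids (edgeR adjusted p = 2.35e-06 and 2.74e-06), and these 4 calls held under every single-library omission, but the KO EGF call was lost without the batch term (adjusted p = 0.108). In EGF-WR over EGF medium it rose by 1.32 ± 0.22 in KO and 0.94 ± 0.22 in WT organoids (edgeR adjusted p = 0.00178 and 0.00855), and the WT call was lost without WT EGF 3 (adjusted p = 0.0676). Both were lost without the batch term (adjusted p = 0.178 in KO and 0.307 in WT organoids).

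S100a9 did not accompany it. S100a8 had 89 to 2388 counts in every library, whereas S100a9, its partner in calprotectin and its neighbour on the chromosome, had 0 to 14, and 80.7% of its 57 counts lay in WR libraries. Every 50-base stretch of both genes is unique to it among annotated transcripts. Because both proteins are abundant in neutrophils, neutrophil markers were examined. Of the 9 markers Ly6g, Mpo and Retnlg had no count, and Ngp had 1, Cxcr2 5, Elane 10 and Csf3r 34 counts over the 18 libraries. Camp had 253 counts and 0 to 1.54 CPM, with no count in 2 libraries. Ltf, a lactoferrin gene that the mammary gland also expresses, made up most of the summed neutrophil list, with 26.1 to 162 CPM. The summed list ran from 77.8 to 116 CPM in KO EGF-WR, 33.0 to 75.7 CPM in KO EGF, 71.0 to 163 CPM in KO WR, 74.2 to 122 CPM in WT EGF-WR, 27.0 to 67.0 CPM in WT EGF and 59.7 to 120 CPM in WT WR libraries. Its median was lower in EGF than in WR medium, with 54.9 CPM in KO EGF against 129 CPM in KO WR and 61.4 CPM in WT EGF against 117 CPM in WT WR libraries.

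S100a6 (calcyclin) was highest in EGF medium. In KO organoids it had 284, 309 and 287 CPM in EGF-WR, 461, 525 and 576 CPM in EGF and 179, 255 and 236 CPM in WR medium. In WT organoids it had 274, 262 and 225 CPM in EGF-WR, 516, 477 and 515 CPM in EGF and 197, 247 and 183 CPM in WR medium. All EGF libraries lay above all others. It rose in EGF over WR medium by 1.23 ± 0.12 in KO and 1.28 ± 0.12 in WT organoids (edgeR adjusted p = 3.02e-06 and 1.69e-06) and in EGF-WR against EGF medium fell by 0.83 ± 0.12 in KO organoids and fell by 0.99 ± 0.12 in WT organoids (edgeR adjusted p = 0.000451 and 8.96e-05). All 4 calls held under every omission. In EGF-WR over WR medium S100a6 rose by 0.40 ± 0.12 in KO organoids (edgeR adjusted p = 0.0326, lost without KO EGF-WR 1, KO EGF-WR 2, KO EGF-WR 3 or KO WR 1, up to 0.179). S100a8, in contrast, was highest in EGF-WR medium.

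S100a1 averaged 96.5 ± 8.30 CPM in KO EGF-WR, 111 ± 10.8 in KO EGF and 67.7 ± 8.76 in KO WR libraries, and 86.5 ± 18.8 CPM in WT EGF-WR, 114 ± 10.5 in WT EGF and 63.7 ± 1.24 in WT WR libraries (SD, n = 3 each). It rose in EGF over WR medium by 0.72 ± 0.13 in KO and 0.83 ± 0.13 in WT organoids (edgeR adjusted p = 0.000979 and 0.000227), in all omissions. In EGF-WR over WR medium it rose by 0.51 ± 0.13 in KO organoids (edgeR adjusted p = 0.0135, lost without KO EGF-WR 1, KO WR 1 or KO WR 3, up to 0.0893) and by 0.43 ± 0.13 in WT organoids (adjusted p = 0.0373, lost in 7 of 18 omissions, up to 0.222). In WT EGF-WR against WT EGF organoids it fell by 0.40 ± 0.13 (edgeR adjusted p = 0.0435, lost in 11 of 18 omissions, up to 0.237). S100a14 moved the other way. It averaged 33.9 ± 5.52 CPM in KO EGF against 60.9 ± 21.4 CPM in KO WR libraries and 35.0 ± 3.24 CPM in WT EGF against 69.7 ± 20.3 CPM in WT WR libraries (SD, n = 3 each). In EGF against WR medium it fell by 0.80 ± 0.19 in KO organoids and fell by 0.93 ± 0.19 in WT organoids (edgeR adjusted p = 0.0115 and 0.0039), and the KO call was lost without KO EGF 2, KO WR 2 or KO WR 3 (adjusted p up to 0.0742). In KO EGF-WR over KO EGF organoids it rose by 0.64 ± 0.19 (edgeR adjusted p = 0.0451, lost in 11 of 18 omissions, up to 0.182).

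The most abundant member per length, S100a11, changed little. It averaged 224 ± 30.7 CPM in KO EGF-WR, 248 ± 44.2 in KO EGF and 278 ± 43.1 in KO WR libraries, against 208 ± 26.1 CPM in WT EGF-WR, 230 ± 27.8 in WT EGF and 268 ± 38.9 in WT WR libraries (SD, n = 3 each). Between EGF-WR and WR medium S100a11 fell by 0.31 ± 0.07 in KO organoids and fell by 0.36 ± 0.07 in WT organoids (edgeR adjusted p = 0.00848 and 0.00297), with groups that overlapped but with a fall in all 3 batches. The KO call was lost without KO EGF-WR 1 (adjusted p = 0.0505), and both were lost without the batch term (adjusted p = 0.43 in KO and 0.344 in WT organoids). In WT EGF against WT WR organoids S100a11 fell by 0.22 ± 0.07 (edgeR adjusted p = 0.0496). That call was lost in 15 of 18 omissions (up to 0.231) and without the batch term (adjusted p = 0.64). Since 58.9% of its 50-base stretches are unique, its level is uncertain. S100a10, the annexin A2 partner, fell by 0.49 ± 0.14 in WT EGF-WR against WT WR organoids (edgeR adjusted p = 0.0298, lost in 5 of 18 single-library omissions, up to 0.129), and S100a13 rose in KO EGF over KO WR organoids by 0.52 ± 0.15 (adjusted p = 0.0243, lost in 5 of 18, up to 0.106). S100a16 was called nowhere, with 87.8 to 120 CPM in all libraries. S100a4, which fibroblasts and leukocytes also express, was called nowhere at 0.4 to 2.44 CPM, and 52.6% of its stretches are unique.

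Envelope precursors. Involucrin and loricrin are often measured together, but only loricrin was called between media, and not in every comparison. Ivl had 84.0, 34.4 and 135 CPM in KO EGF-WR, 25.1, 67.0 and 114 CPM in KO EGF and 16.9, 51.0 and 119 CPM in KO WR libraries, against 71.9, 38.0 and 76.8 CPM in WT EGF-WR, 48.5, 68.2 and 46.3 CPM in WT EGF and 25.2, 72.8 and 49.1 CPM in WT WR libraries. The media overlapped, the 3 batch 3 KO libraries were the highest of all, and Ivl was called in no comparison. Its fitted change in EGF over WR medium was 0.21 ± 0.62 in KO and 0.23 ± 0.63 in WT organoids.

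Lor was low, and its mean was highest in WR medium. It had 3.49, 1.11 and 1.41 CPM in KO EGF-WR, 2.68, 5.06 and 4.60 CPM in KO EGF and 5.78, 4.65 and 5.62 CPM in KO WR libraries. In WT libraries it had 2.36, 1.94 and 2.13 CPM in EGF-WR, 3.21, 4.03 and 2.62 CPM in EGF and 4.85, 6.04 and 14.1 CPM in WR medium. With EGF-WR against WR medium Lor fell by 1.42 ± 0.43 in KO organoids and fell by 1.93 ± 0.43 in WT organoids (edgeR adjusted p = 0.0398 and 0.00751). The KO call was lost in 9 of 18 single-library omissions (adjusted p up to 0.183) and the WT call without WT WR 3 (adjusted p = 0.0698). The fall of 1.30 ± 0.42 in WT EGF against WT WR organoids (adjusted p = 0.0478) was lost in 13 of 18 (up to 0.358). In KO EGF against KO WR organoids the libraries overlapped and Lor was not called, with a change of -0.37 ± 0.42 (edgeR adjusted p = 0.665).

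Crct1 (cysteine-rich C-terminal 1) had 0, 0.258 and 0.241 CPM in KO EGF against 0.836, 0.741 and 2.91 CPM in KO WR libraries, and 0, 0 and 0.491 CPM in WT EGF against 0.492, 15.2 and 8.83 CPM in WT WR libraries. In WT EGF against WT WR organoids it fell by 5.77 ± 1.26 (edgeR adjusted p = 0.0061). Kprp (keratinocyte proline-rich protein) averaged 0.0601 ± 0.0703 CPM in KO EGF against 1.43 ± 0.780 CPM in KO WR and 0.135 ± 0.120 CPM in WT EGF against 2.62 ± 1.71 CPM in WT WR libraries (SD, n = 3 each), and fell by 5.39 ± 1.35 in KO organoids and fell by 4.35 ± 1.16 in WT organoids (edgeR adjusted p = 0.0114 and 0.0158).

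SPRR genes. Sprr1a and Sprr1b, which code for closely related envelope precursors and neighbour each other among the members, had different patterns. Sprr1b had 0.218, 2.36 and 3.42 CPM in KO EGF-WR, 0, 0.258 and 0.309 CPM in KO EGF and 3.03, 34.5 and 7.10 CPM in KO WR libraries. In WT libraries it had 0.160, 2.01 and 2.46 CPM in EGF-WR, 0.134, 0.561 and 0.295 CPM in EGF and 1.28, 28.4 and 23.4 CPM in WR medium. It was highest in WR and lowest in EGF medium within each batch of either genotype. In EGF against WR medium it fell by 6.35 ± 0.69 in KO organoids and fell by 5.49 ± 0.63 in WT organoids (edgeR adjusted p = 1.78e-05 and 2.55e-05). In EGF-WR against WR medium it fell by 2.98 ± 0.52 in KO organoids and fell by 3.35 ± 0.52 in WT organoids (edgeR adjusted p = 0.0015 and 0.000705). These 4 calls held under every single-library omission, but both EGF-WR against WR calls were lost without the batch term (adjusted p = 0.257 in KO and 0.173 in WT organoids). Against EGF alone it rose in EGF-WR medium by 3.37 ± 0.72 in KO organoids (edgeR adjusted p = 0.00767, lost without KO EGF-WR 3 or KO EGF 2, up to 0.0608) and by 2.14 ± 0.66 in WT organoids (adjusted p = 0.04, lost in 9 of 18 omissions, up to 0.264), and neither call held without the batch term (adjusted p = 0.339 in KO and 0.475 in WT organoids).

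Sprr1a, in contrast, had 35.1 to 154 CPM in every library. Its levels were 79.3, 37.5 and 153 CPM in KO EGF-WR, 36.8, 62.4 and 154 CPM in KO EGF and 37.6, 56.6 and 127 CPM in KO WR libraries, and 84.7, 35.1 and 119 CPM in WT EGF-WR, 39.2, 57.0 and 53.7 CPM in WT EGF and 36.6, 112 and 95.4 CPM in WT WR libraries. As for Ivl, the batch 3 KO libraries were the highest and the media overlapped. The change in EGF over WR medium was 0.16 ± 0.51 in KO and -0.65 ± 0.52 in WT organoids (edgeR adjusted p = 0.903 and 0.501). Both Sprr1 genes consist wholly of unique 50-base stretches.

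**Figure D3:**
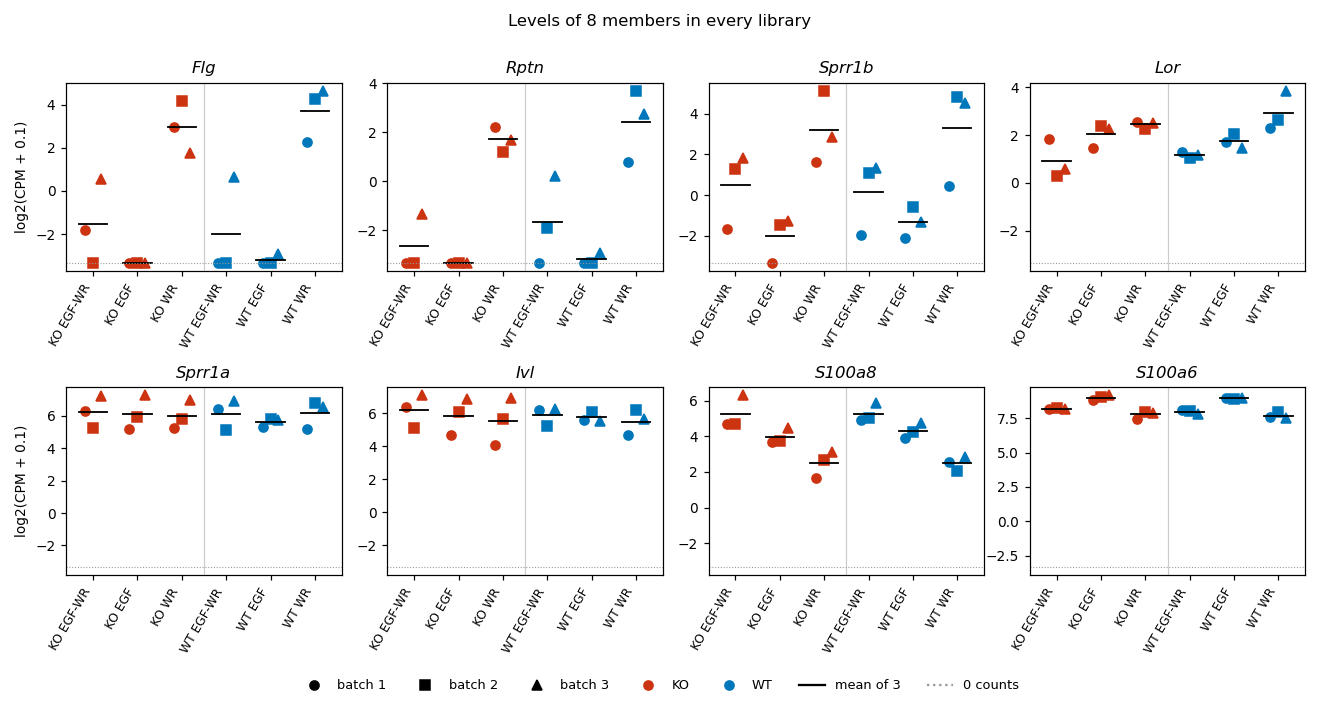
Levels of 8 members, as log2(CPM + 0.1), in every library, with KO (red) left of WT (blue), symbols by batch and a line at the mean of the 3 log2 values of each group. Flg, Rptn and Sprr1b are high in WR medium only or mainly there, Sprr1a and Ivl overlap between media, S100a8 is highest in EGF-WR and S100a6 in EGF medium.

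Sprr2h had 0.764, 0.0738 and 1.68 CPM in KO EGF-WR, no count in KO EGF and 0.592, 4.37 and 1.52 CPM in KO WR libraries. It was at least 51.9-fold lower in KO EGF than in KO WR organoids, taking 3 counts over the group as the floor (edgeR adjusted p = 0.00301). In KO EGF-WR it was at least 22.2-fold higher than in KO EGF organoids (adjusted p = 0.016, lost without KO EGF-WR 3, KO EGF 2 or KO EGF 3, up to 0.0827). In WT EGF against WT WR organoids it fell by 4.53 ± 1.15 (adjusted p = 0.0143, lost without WT EGF 2, WT EGF 3 or WT WR 3, up to 0.101), with 0.134, 0 and 0.0982 CPM against 0.557, 2.38 and 4.15 CPM. Sprr2a3 had a different distribution, with 0.83, 0.428 and 0.758 CPM in WT EGF-WR against no count in WT EGF libraries (edgeR adjusted p = 0.0183), but 38.9% of its 50-base stretches are unique, so counts may be shared with Sprr2a1, Sprr2a2 or Sprr2b. Sprr2a1 itself had no count and is not a member. Sprr4 had 469 counts in WT WR 2, 80 or fewer in every other library, and was not called.

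LCE genes. LCE proteins are small cysteine- and glycine-rich proteins of the latest envelope. The 12 Lce1 members together had 6 counts in KO EGF-WR, 14 in KO EGF and 252 in KO WR libraries, and 16 in WT EGF-WR, 25 in WT EGF and 468 in WT WR libraries. The 4 Lce3 members had 45 counts in KO WR and none in KO EGF-WR or KO EGF libraries, and 9 counts in WT EGF-WR, none in WT EGF and 82 in WT WR libraries. Because neighbouring Lce1 and Lce3 genes share sequence (50.7 to 64.3% unique stretches in Lce3 genes, 72.9 to 90.9% in the Lce1 genes other than Lce1m), counts of single genes are uncertain and the sums are safer. Lce6a, at 0.369 to 5.29 CPM, was spread over all media and was not called.

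Only 7 of 17 LCE members passed the filter. Lce1f was at least 14.3-fold lower in KO EGF-WR than in KO WR organoids and at least 31.6-fold lower in WT EGF-WR than in WT WR organoids (edgeR adjusted p = 0.0317 and 0.0203). In WT EGF it was 47.2-fold lower than in WT WR organoids (95% counting interval 12.7 to 395, covering counting error only, edgeR adjusted p = 0.039). Lce1a1 was at least 23.8-fold lower in WT EGF than in WT WR organoids (adjusted p = 0.0483).

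The LCE counts differed between WR libraries of the same genotype. KO WR 1 held 213 of the 252 Lce1 counts (84.5%) in KO WR medium, with all 12 Lce1 members present, whereas KO WR 2 had 22 counts and KO WR 3 had 17. KO WR 2 held 25 of the 45 Lce3 counts (55.6%). In WT WR medium the Lce1 counts were 69, 176 and 223. The sum of Flg, Flg2, Hrnr, Rptn and Crnn did not follow Lce1 across the KO WR libraries, with 401, 498 and 205 counts, against 216, 1010 and 1024 counts in WT WR libraries. KO and WT WR libraries overlapped in all 3 sums, as the bar plot of WR libraries shows.

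**Figure D4:**
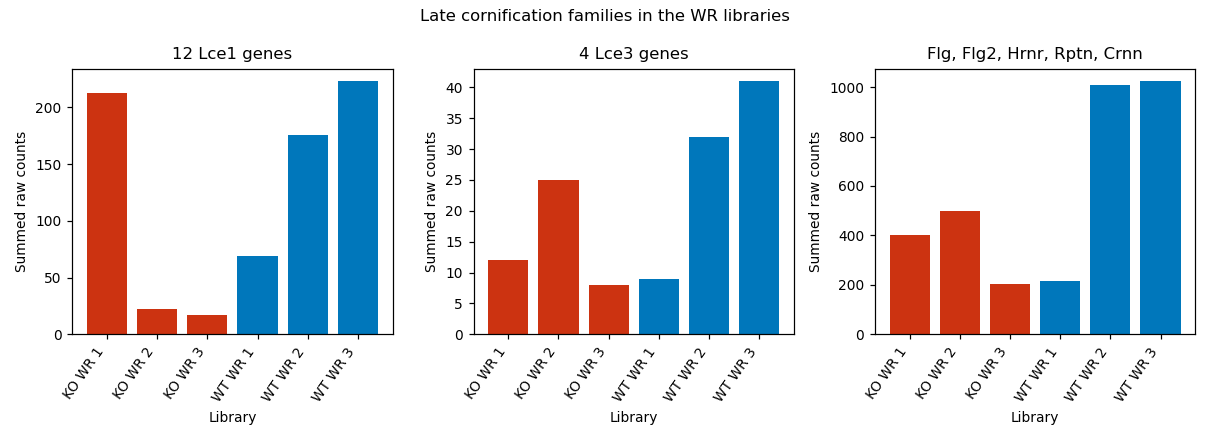
Summed raw counts of the Lce1 genes, the Lce3 genes and the fused S100-type genes without Tchh in the 6 WR libraries, KO (red) left of WT (blue), with bars from 0. KO WR 1 holds 213 Lce1 counts and the other KO WR libraries 22 and 17, and the genotypes overlap in each panel.

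Fused S100-type genes. Filaggrin, the keratin-bundling protein of the granular layer, was almost confined to WR medium. Flg had 0.182, 0 and 1.35 CPM in KO EGF-WR, no count in KO EGF and 7.66, 17.8 and 3.30 CPM in KO WR libraries. In WT libraries it had 0, 0 and 1.48 CPM in EGF-WR, 0, 0 and 0.0327 CPM in EGF and 4.66, 19.3 and 24.5 CPM in WR medium. No library with EGF reached the lowest WR library. Flg was at least 231-fold lower in KO EGF than in KO WR organoids (edgeR adjusted p = 0.0105). In WT EGF it was 1430-fold lower than in WT WR organoids, a ratio that rests on 1 count in WT EGF 3 (95% counting interval 256 to 56500, counting error only, edgeR adjusted p = 0.00743, and 0.0923 without that library). With EGF-WR against WR medium Flg fell by 4.93 ± 1.33 in KO organoids and fell by 5.36 ± 1.30 in WT organoids (edgeR adjusted p = 0.0405 and 0.0282), calls that were lost in 12 of 18 and 6 of 18 omissions (adjusted p up to 0.144 and 0.105).

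Rptn (repetin) shared the contrast between media with Flg, but not the order of the WR libraries. It had 0, 0 and 0.296 CPM in KO EGF-WR, no count in KO EGF and 4.53, 2.18 and 3.14 CPM in KO WR libraries, against 0, 0.164 and 1.05 CPM in WT EGF-WR, 0, 0 and 0.0327 CPM in WT EGF and 1.61, 12.6 and 6.64 CPM in WT WR libraries. It was at least 85.3-fold lower in KO EGF than in KO WR organoids (edgeR adjusted p = 0.00449), and 609-fold lower in WT EGF than in WT WR organoids (95% counting interval 109 to 24100, counting error only, adjusted p = 0.00243). Between EGF-WR and WR medium Rptn fell by 5.59 ± 1.26 in KO organoids and fell by 4.45 ± 1.09 in WT organoids (edgeR adjusted p = 0.0123 and 0.0219), calls lost without KO EGF-WR 1 or KO EGF-WR 2 (up to 0.0627) and without WT EGF-WR 1, WT EGF-WR 2, WT EGF 3 or WT WR 2 (up to 0.117).

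Hrnr (hornerin) was at least 12.3-fold lower in KO EGF than in KO WR organoids and at least 26.8-fold lower in WT EGF than in WT WR organoids (edgeR adjusted p = 0.0468 and 0.0158). The few late-gene counts in EGF-WR medium came mostly from batch 3. KO EGF-WR 3 held 86.7% of the 60 counts of Flg, Flg2, Hrnr, Rptn and Crnn in KO EGF-WR, and WT EGF-WR 3 held 89.7% of the 87 counts in WT EGF-WR medium. Tchh (trichohyalin), known from the hair follicle, had 3.50 to 10.7 CPM in all libraries and no call. In WT organoids it was nonetheless lower than in WR medium in all 3 batches, without overlap. The fall was 0.83 ± 0.28 in EGF and 0.68 ± 0.28 in EGF-WR medium (edgeR adjusted p = 0.056 and 0.146). In KO organoids the groups overlapped, with changes of -0.11 ± 0.28 and -0.34 ± 0.28.

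Other members. Pglyrp3, a bactericidal peptidoglycan recognition protein, averaged 1.80 ± 0.866 CPM in KO EGF-WR against 4.40 ± 2.19 CPM in KO WR and 1.60 ± 1.01 CPM in WT EGF-WR against 4.81 ± 1.69 CPM in WT WR libraries (SD, n = 3 each). Between EGF-WR and WR medium Pglyrp3 fell by 1.28 ± 0.31 in KO organoids and fell by 1.66 ± 0.31 in WT organoids (edgeR adjusted p = 0.0104 and 0.002), the KO call being lost without KO EGF-WR 3 or KO WR 2 (up to 0.0597). In WT EGF against WT WR organoids it fell by 1.00 ± 0.31 (adjusted p = 0.0341, lost in 5 of 18 omissions, up to 0.187). The unnamed gene 2310046K23Rik had no count in WT EGF against 3.93, 12.9 and 12.4 CPM in WT WR libraries, at least 288-fold lower (edgeR adjusted p = 0.00158), and 0, 0 and 0.241 CPM in KO EGF against 2.44, 2.72 and 1.78 CPM in KO WR libraries, a log2 fold change of -5.35 ± 1.33 (adjusted p = 0.0207, lost in 5 of 18 omissions, up to 0.0929). In EGF-WR against WR medium it fell by 4.57 ± 1.22 in KO organoids and fell by 5.32 ± 1.13 in WT organoids (edgeR adjusted p = 0.0315 and 0.0109), and the KO call was lost in 7 of 18 omissions (up to 0.108). It lies between Sprr4 and Ivl.

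No member was called between KO and WT organoids in any medium. Over all genes the edgeR test called 0.0819% in EGF-WR, 0.0702% in EGF and 0.0819% in WR medium. At an unadjusted p under 0.05 there were 0, 2 and 0 members, and DESeq2 called none. The 2, named after their values were seen, were S100a7a (0.449 ± 0.718 CPM in KO EGF against 0.0223 ± 0.0386 CPM in WT EGF libraries) and Sprr2a3 (0.241 ± 0.417 CPM against no count), both at an edgeR adjusted p of 1.0. Flg had 9.57 ± 7.41 CPM in KO WR and 16.2 ± 10.3 CPM in WT WR libraries (SD, n = 3 each), a log2 difference of -0.20 ± 1.05 (edgeR adjusted p = 0.982). The difference between the genotypes in their response to medium was tested as an interaction. It was called for no member and for 0.0% of all genes in the 3 media contrasts, with 0 members at an unadjusted p under 0.05 in EGF-WR over WR, 0 in EGF over WR and 1 in EGF-WR over EGF medium (Sprr2a3, adjusted p = 1.0), and none by DESeq2. These tests do not show that the genotypes were alike. The median log2 difference of the tested members, KO over WT, was -0.28 in WR medium, against 0.0 over all genes. With low genes at their bound or ratio it was 0.01 in EGF and -0.01 in EGF-WR medium. These medians are descriptions.

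Cornification genes elsewhere in the genome were lower in EGF than in WR medium as well. Of 32 such genes listed, 31 were tested. The list was chosen with earlier results of these data known, so its counts are descriptions and not separate evidence. In EGF against WR medium none rose in either genotype, 21 fell in KO organoids (5.94% of all genes) and 26 fell in WT organoids (6.92% of all genes). The median log2 fold change was -2.45 in KO and -3.39 in WT organoids, against -0.02 and -0.01 over all genes. In EGF-WR against WR medium 16 fell in KO and 21 in WT organoids, where 6.65% and 5.82% of all genes fell (median -1.46 and -1.88, against 0.0 over all genes). In EGF-WR against EGF medium 11 rose in KO and 13 in WT organoids, where 5.17% and 6.85% of all genes rose, and none fell (median with bounds 0.89 and 0.97, against 0.0 over all genes). Krt10, the suprabasal keratin, averaged 9.80 ± 4.30 CPM in KO EGF-WR, 4.78 ± 1.29 in KO EGF and 234 ± 103 in KO WR libraries, and 16.9 ± 17.5 CPM in WT EGF-WR, 4.16 ± 0.856 in WT EGF and 409 ± 272 in WT WR libraries (SD, n = 3 each). In EGF against WR medium it fell by 5.66 ± 0.61 in KO organoids and fell by 6.38 ± 0.63 in WT organoids (edgeR adjusted p = 0.000102 and 4.19e-05). Dsg1a, a desmosomal cadherin of the upper epidermis, rose in EGF-WR over EGF medium by 4.25 ± 0.52 in KO and 6.27 ± 0.60 in WT organoids (edgeR adjusted p = 0.000192 and 1.92e-05). Calls of these genes, and of the regulators given next, were not followed here without the batch term or under omissions.

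Among 33 transcription factors and other regulators tied to the cluster in the literature on skin, 3 rose and 6 fell in EGF against WR medium, and the same genes did so in KO and in WT organoids. Over all genes 7.55% rose and 5.94% fell in KO and 8.52% rose and 6.92% fell in WT organoids, so the count of regulators that rose was near the share over all genes. Cebpb, Satb1 and Vdr rose, and Trp63, Ehf, Ahr, Maf, Nfe2l2 and Hopx fell. Trp63, a regulator of stratified epithelia, averaged 64.1 ± 10.6 CPM in KO EGF against 134 ± 22.0 CPM in KO WR and 75.6 ± 10.8 CPM in WT EGF against 133 ± 19.9 CPM in WT WR libraries (SD, n = 3 each), with log2 fold changes of -1.06 ± 0.14 in KO and -0.82 ± 0.14 in WT organoids (edgeR adjusted p = 8.62e-05 and 0.000678). Ehf, an epithelial ETS factor, fell by 0.83 ± 0.11 in KO organoids and fell by 0.98 ± 0.11 in WT organoids (edgeR adjusted p = 8.02e-05 and 1.27e-05). In EGF-WR over EGF medium Ehf, Ahr and Grhl1 rose in both genotypes. The regulators' median change in EGF over WR medium was -0.10 in KO and -0.20 in WT organoids, against -0.02 and -0.01 over all genes. Neither list had a gene called between the genotypes. In WR medium the median log2 difference, KO over WT, was -0.44 for the cornification genes off chromosome 3 and 0.06 for the regulators. For these cornification genes it was 0.09 in EGF and -0.23 in EGF-WR medium, with low genes at their bound or ratio.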

How the data were processed

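RNA was sequenced from 18 organoid cultures in 6 groups of 3, as single-end reads of 50 bases from libraries of 100 ng of total RNA, per the labels. The values are raw read counts per Ensembl gene that the authors deposited in 1 table, beside gene annotation (symbol, biotype and GRCm38 position) of no unit. The submitters' processing notes name STAR, DESeq2 and GRCm38; versions, the annotation release, strand use and the treatment of reads that fit several genes were not given in the sources used here.

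Counts were tested with edgeR 4.0.16 (R 4.3.3, limma 3.58.1; TMM, filterByExpr with a minimum count of 10 and total of 15, robust quasi-likelihood F-test, two-sided) on all 18 libraries with 6 group means and batch, since the headers of the authors' table name a batch term and the batch equals the replicate number. P-values were adjusted over all 17092 genes kept. The fit itself gives no SE, so each was taken as the absolute log2 fold change divided by the square root of F. The same numbers mark a shared batch per the labels: correlations of deviations from the group means were 0.307 to 0.709 over 45 pairs with the same number and -0.454 to 0.0441 over 90 other pairs. Deviations cancel out within each group, so the low values of the other pairs follow from the positive ones and are not separate evidence. CPM use TMM-scaled library sizes, and levels per kb use exon lengths of GENCODE M21, which holds all 54 members at the same positions. Folds against groups with no count take 3 counts over the group as floor, and ratios with 1 to 3 counts carry exact 95% intervals that cover counting error only.

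On simulated counts for WT EGF against WT WR medium (16663 genes), 54% of 100 genes changed by 1 log2 unit and 71% of 100 changed by 2 were called, with 3 false calls among 128. Alternatives were DESeq2 1.42.0, its size factors, no filter, no batch term and omission of each library or batch. The members and gene lists were chosen with earlier results of these data known. Named were the members called in a comparison with a mean of at least 1 CPM and a set list of well-known members; a few low members called are named besides.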

Additional observations from a re-analysis of the deposited data

How the results depend on the processing

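The replicate block (batch term) mattered most. With no replicate block the members called were 6 in KO EGF against WR (12 with it), 10 in WT EGF against WR (17), 1 in KO EGF-WR against WR (12), 2 in WT EGF-WR against WR (13), 1 in KO EGF-WR against EGF (5) and 1 in WT EGF-WR against EGF (5). With no filter on low counts 7 were called in KO EGF-WR against WR and 3 in WT EGF-WR against EGF, and DESeq2 called 8 in WT EGF-WR against EGF. Omitting 1 library gave 7 to 13 (KO EGF against WR), 8 to 19 (WT EGF against WR), 4 to 12 (KO EGF-WR against WR), 6 to 15 (WT EGF-WR against WR), 2 to 5 (KO EGF-WR against EGF) and 1 to 7 (WT EGF-WR against EGF). Omitting batch 1, 2 or 3 gave, in that order of comparisons, 7, 8 and 7; 12, 11 and 8; 5, 4 and 6; 7, 4 and 5; 5, 3 and 2; and 4, 3 and 1. The genotype and interaction counts stayed at 0 in all alternatives run. Calls of Kprp, Hrnr, Lce1f, Lce1a1 and Sprr2a3 are left out of the next count. Of 52 calls of the other named members, 25 held under all 18 single-library omissions and 20 without the batch term. Of the same 52, 37 held without the filter, 51 with DESeq2's size factors and 52 with DESeq2, and no direction reversed. Why counts moved was not tested. Depth limits the low members: 21 had under 100 counts in all.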

Other observations

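Of the 24 protein-coding genes of the interval below the minimum, 11 had 2 to 8 counts and 13 had no count in any of the 18 libraries. Those with no count included Sprr3, an envelope precursor of moist stratified epithelia, Lce3b, Tchhl1 and Sprr2a1.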
